A study of Homo sapiens with 12 samples.

Results

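The transcripts of 10 genes of blood vessel growth were followed in DAOY, a human medulloblastoma cell line, and in lines of it with NOTCH1 or NOTCH2 targeted. The genes were taken by name: the VEGF ligand genes VEGFA, VEGFB, VEGFC and PGF, their receptor and co-receptor genes FLT1, NRP1 and NRP2, and the secreted factor genes EDN1, ESM1 and ANGPTL4. All 10 were found among the 63677 gene identifiers of the tables, and all 10 were among the 17621 genes with a mean TPM of 1 or more that entered the tests. TPM is a level scaled for gene length and library size, so that genes may be set side by side. Cells of 3 genotypes were sequenced, wild type (WT) and a line each in which CRISPR/Cas9 had been used against NOTCH1 (NOTCH1KO) or NOTCH2 (NOTCH2KO). Cells of each genotype were grown on plates coated with the Notch ligand Jagged1 or with its control, Fc, and each plate received the solvent DMSO or the γ-secretase inhibitor DAPT for 12 h, which blocks release of the active Notch fragment. The 3 genotypes and 4 cultures gave 12 combinations with 1 library each. A genotype therefore had 4 libraries, each from another culture, and 1 line. The sources used here do not say whether a line was grown from a single cell.

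VEGF ligands are secreted dimers that act on receptor tyrosine kinases, chiefly of endothelial cells. VEGFA binds FLT1 (VEGFR1) and KDR (VEGFR2), of which KDR carries most of the growth signal and FLT1 can act as a trap for ligand. VEGFB and PGF bind FLT1, VEGFC binds FLT4 (VEGFR3) in lymphatic vessels, and the neuropilins NRP1 and NRP2 serve as co-receptors for VEGFs and as receptors for class 3 semaphorins. EDN1 encodes endothelin-1, a vasoconstrictor peptide, ESM1 encodes endocan, a proteoglycan of activated endothelium, and ANGPTL4 encodes a secreted inhibitor of lipoprotein lipase. VEGFA and ANGPTL4 are textbook targets of the hypoxia-inducible factors, which bind a core of ACGTG or GCGTG.

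The libraries held an estimated 18.3 to 22.4 M reads, so that a single read, in a transcript of 1 kb, added 0.0947 to 0.117 TPM. NOTCH1 was at 3.19 ± 0.337 TPM in WT and 0.565 ± 0.249 in NOTCH1KO, and NOTCH2 was at 80.7 ± 9.56 in WT and 50.7 ± 7.95 in NOTCH2KO (mean ± SD, n = 4 libraries). The Notch target gene HES1 averaged 68.0 TPM on Jagged1 with DMSO, called the Notch-on culture here, against 40.9 on Fc with DMSO, 23.0 on Fc with DAPT and 30.8 on Jagged1 with DAPT (n = 3 each). HEY1 averaged 35.5 against 10.1, 7.40 and 9.27 in the same order, HES4 3.22 against 1.31, 1.18 and 0.882, and NRARP 4.61 against 3.95, 3.02 and 2.86. Of 12 endothelial markers, PECAM1 and EMCN were listed at 0 in all 12 libraries and VWF in 10 of them, while TIE1, TEK and EGFL7 were present. Their summed level ran from 72.0 to 87.5 TPM for WT, from 27.4 to 55.1 for NOTCH1KO and from 67.9 to 83.3 for NOTCH2KO. EGFL7 alone averaged 24.2 TPM in WT, 6.53 in NOTCH1KO and 24.3 in NOTCH2KO. Of 10 markers of medulloblastoma and the granule lineage, ZIC1 and ZIC2 were present, and ATOH1 and BARHL1 were listed at 0 in 10 and 11 libraries.

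RefSeq windows of 250 bases before a transcription start were at hand for 8 of the 10 genes, 11 windows in all, and not for VEGFA or NRP1. Both strands were searched for ACGTG and GCGTG, whose reverse complements are CACGT and CACGC, and for TGGGAA, a motif of the Notch partner RBPJ. EDN1 had 3 windows and PGF 2. An ACGTG or GCGTG lay in 8 of the 11 windows and in at least 1 window of 7 genes, while 43.2% of all 35116 windows held either one, 18.5% the first and 32.2% the second. TGGGAA lay in a window of 1 gene, PGF, and in 20.8% of all windows. NRP2 had none of these letters in its window. Printed are the windows of EDN1 and ESM1, which differed most between genotypes, of FLT1, which had its highest level in the Notch-on culture in each genotype, and of PGF, the gene with the RBPJ motif. Sequences run 5′ to 3′ toward the start on the gene's strand, in GRCh38.p14, with motif matches in capitals. The EDN1 window is at chr6:12290111-12290360 on the plus strand, with an ACGTG on the opposite strand 123 bases before the start. Another EDN1 window held 2 ACGTG and 1 GCGTG. The ESM1 window is at chr5:54985594-54985843 on the minus strand, with an ACGTG 18 and a GCGTG 153 bases before the start. The FLT1 window is at chr13:28495129-28495378 on the minus strand, with a GCGTG on the opposite strand 206 bases before the start. The PGF window is at chr14:74955765-74956014 on the minus strand, with a TGGGAA on the opposite strand 201 bases before the start.
EDN1: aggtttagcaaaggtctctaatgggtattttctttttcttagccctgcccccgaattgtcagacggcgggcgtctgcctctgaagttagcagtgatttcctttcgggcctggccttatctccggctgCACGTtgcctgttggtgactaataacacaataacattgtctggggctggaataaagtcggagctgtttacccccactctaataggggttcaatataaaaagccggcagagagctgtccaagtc
ESM1: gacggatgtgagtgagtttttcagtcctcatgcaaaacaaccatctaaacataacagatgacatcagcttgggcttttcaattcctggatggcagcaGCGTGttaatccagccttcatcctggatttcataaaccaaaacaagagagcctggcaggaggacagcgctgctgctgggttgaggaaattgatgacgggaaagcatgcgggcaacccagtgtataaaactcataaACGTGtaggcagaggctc
FLT1: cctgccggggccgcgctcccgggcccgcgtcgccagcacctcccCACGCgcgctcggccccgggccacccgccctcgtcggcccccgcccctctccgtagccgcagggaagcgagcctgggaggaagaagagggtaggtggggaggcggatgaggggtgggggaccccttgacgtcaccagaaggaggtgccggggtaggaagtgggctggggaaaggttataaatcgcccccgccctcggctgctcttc
PGF: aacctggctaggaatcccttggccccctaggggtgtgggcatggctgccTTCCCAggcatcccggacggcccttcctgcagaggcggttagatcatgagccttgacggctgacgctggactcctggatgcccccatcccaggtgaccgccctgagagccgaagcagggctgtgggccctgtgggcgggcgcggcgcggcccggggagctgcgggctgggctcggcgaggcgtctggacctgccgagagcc

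By TPM, VEGFA, NRP2 and NRP1 led the group in WT and PGF, ANGPTL4 and FLT1 closed it. Mean TPM in WT was 181 ± 39.2 for VEGFA, 118 ± 9.83 for NRP2, 93.2 ± 17.4 for NRP1, 24.9 ± 4.21 for VEGFC, 21.0 ± 5.48 for VEGFB and 15.4 ± 8.27 for EDN1 (n = 4). It was 7.82 ± 4.51 for ESM1, 5.30 ± 0.699 for ANGPTL4, 5.29 ± 1.44 for PGF and 3.67 ± 3.37 for FLT1. The WT ranges of neighbours in this order overlapped, other than those of VEGFA and NRP2 and of NRP1 and VEGFC. In NOTCH2KO the order was NRP2, VEGFA, NRP1, EDN1 and ESM1, where the ranges of VEGFA and NRP1 and of EDN1 and ESM1 overlapped. In NOTCH1KO it was NRP2, NRP1, VEGFA and EDN1, and all neighbours overlapped. These orders rest on TPM. By mean coverage, scaled to the same sum in every library, WT stood at 14.6 for VEGFA, 8.20 for NRP1 and 7.47 for VEGFB and EDN1. It stood at 4.08 for NRP2 and 0.993 for VEGFC. In NOTCH2KO, coverage of EDN1 (31.0) and ESM1 (18.4) exceeded that of VEGFA (9.50) and NRP2 (6.58).

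**Figure D1:**
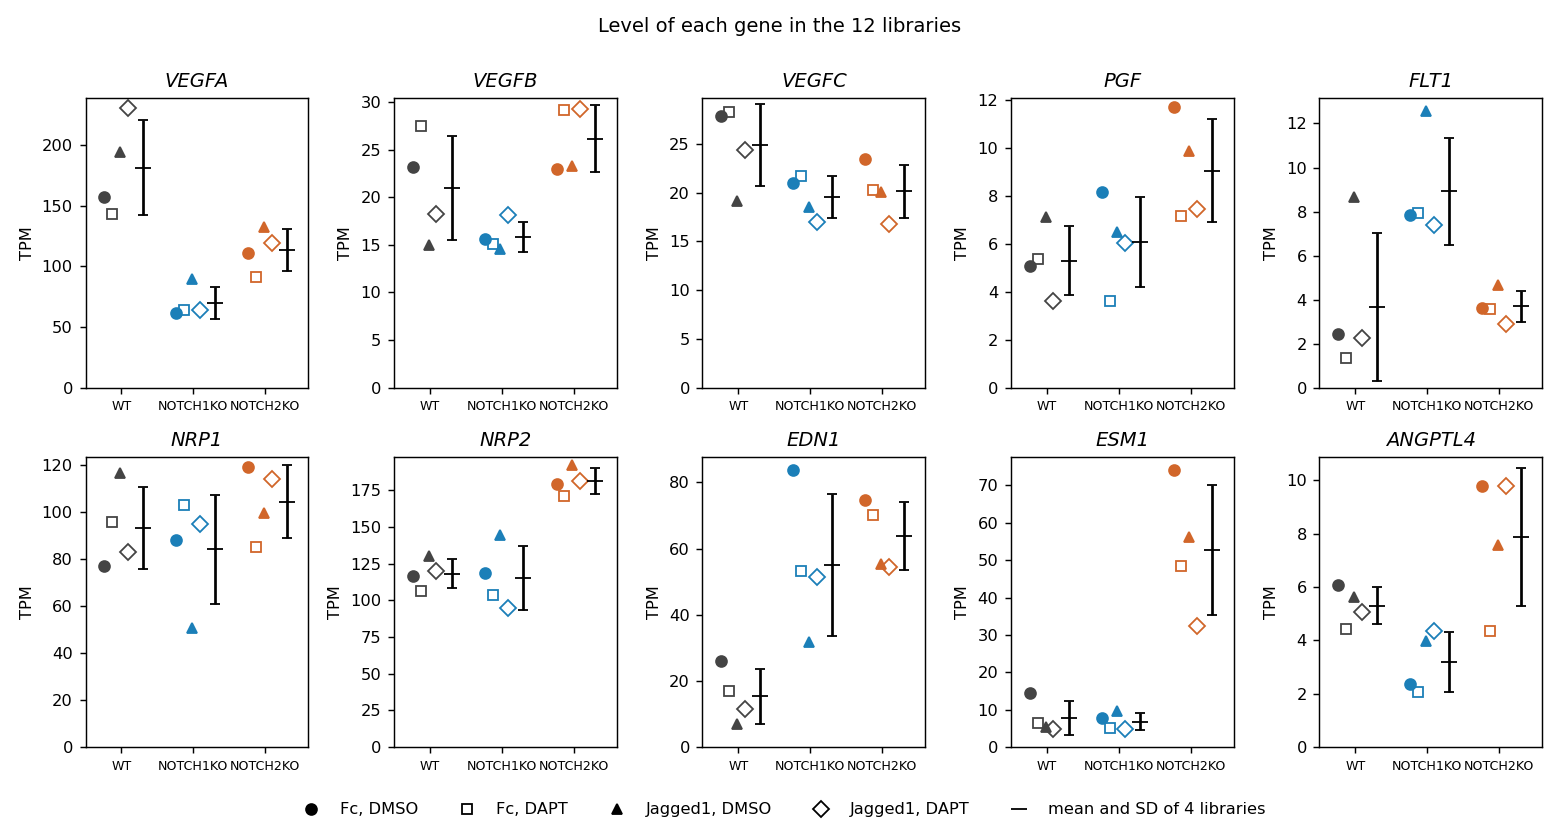
Level of the 10 genes in TPM (vertical axes, from 0) in the 12 libraries, by genotype (horizontal axes), with the symbol giving the culture and the bar the mean and SD of 4 libraries. EDN1 stood at 6.90 to 26.1 in WT and at 31.7 or more in every knockout library, ESM1 stood at 32.3 or more in NOTCH2KO and at 14.5 or less elsewhere, and VEGFA was at 89.5 or less in NOTCH1KO.

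The comparison of each knockout line with WT asked how the 10 genes differed in cells with either receptor targeted. In NOTCH1KO, EDN1 and FLT1 rose and VEGFA and ANGPTL4 fell. In NOTCH2KO, ESM1, EDN1, NRP2 and PGF rose and VEGFA fell. So 2 of 10 genes rose in NOTCH1KO, where 10.7% of all tested genes rose, and 2 fell, where 12.8% fell. In NOTCH2KO 4 rose, where 12.0% of all tested genes rose, and 1 fell, where 7.35% fell. The median log2 difference of the 10 genes was -0.14 in NOTCH1KO (all tested genes, 0.00) and 0.39 in NOTCH2KO (all tested genes, 0.06). Both comparisons use the same 4 WT libraries. Tests were by limma on log2(TPM + 1), a scale that understates changes of low genes, with adjusted p-values after Benjamini and Hochberg over all tested genes. Because no combination of genotype and culture was repeated, the p-values set each difference against the scatter that additive effects leave among these 12 libraries. Each genotype was 1 line, so they do not cover the spread between lines, and genotype cannot be told apart from line. Centring the libraries on their medians moved the share of rises among all calls from 45.5% to 56.1% for NOTCH1KO and from 61.9% to 42.9% for NOTCH2KO, and the median over all tested genes by up to 0.15 in NOTCH2KO against NOTCH1KO (0.07 to -0.08). With centring, ANGPTL4 in NOTCH1KO (limma adjusted p = 0.0635) and PGF in NOTCH2KO (0.0522) were no longer called and VEGFC in NOTCH2KO was (-0.39, adjusted p = 0.0394), while no difference of the 10 genes that was called changed its sign.

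**Figure D2:**
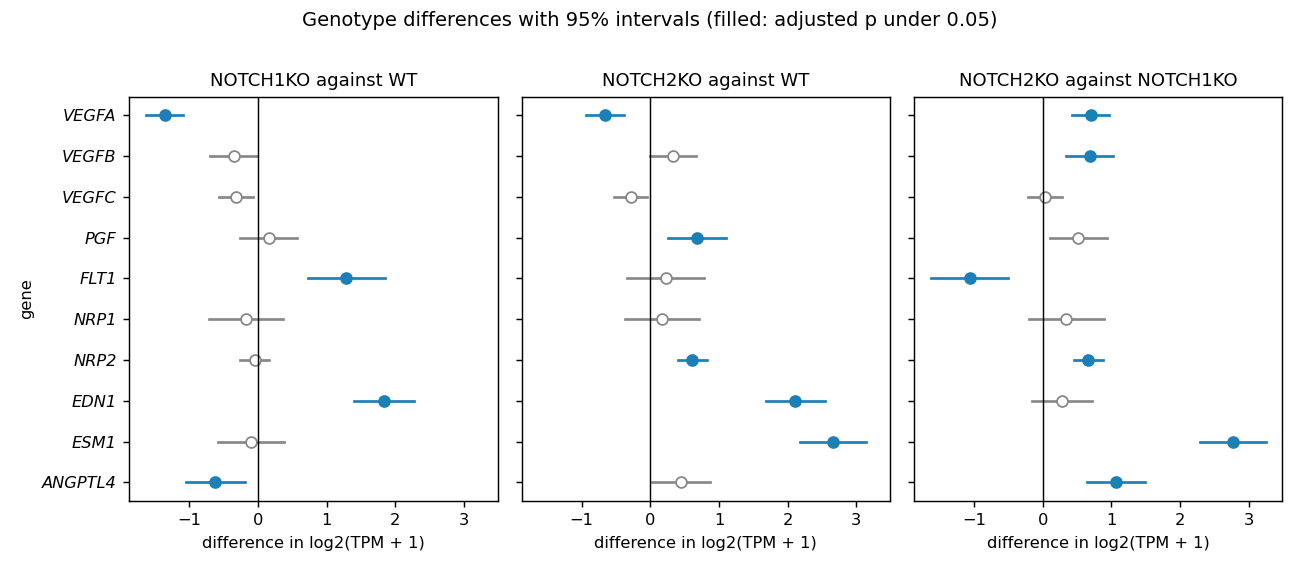
Difference in log2(TPM + 1) (horizontal axis) of the 10 genes (vertical axis) between genotypes, as estimate and 95% interval, filled where the adjusted p is under 0.05. EDN1 lay at 1.84 and 2.11 in the comparisons with WT, ESM1 at -0.10 and 2.66, and VEGFA at -1.36 and -0.66.

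Among the VEGF ligands, VEGFA fell in both lines. VEGFA (ENSG00000112715, GRCh37 chromosome 6, 43737921 to 43754224, plus strand) was at 157, 143, 195 and 230 TPM in WT, given here and below first for Fc (DMSO, then DAPT) and then for Jagged1 (DMSO, then DAPT). It was at 61.5, 64.2, 89.5 and 63.9 in NOTCH1KO and at 111, 91.1, 132 and 119 in NOTCH2KO. Every NOTCH1KO library lay below every library of the other genotypes, and the NOTCH2KO libraries lay below those of WT. The log2 difference from WT was -1.36 ± 0.12 (SE) in NOTCH1KO (limma, adjusted p = 0.000247) and -0.66 ± 0.12 in NOTCH2KO (adjusted p = 0.00731). NOTCH2KO exceeded NOTCH1KO by 0.70 ± 0.12 (adjusted p = 0.0032), and VEGFA was higher in 4 of 4 cultures. Among the 84 tested genes within 5 Mb of VEGFA the median log2 difference was -0.06 in NOTCH1KO and -0.28 in NOTCH2KO. In NOTCH2KO 29 of them fell (34.5%), where 7.35% of all tested genes fell. The part of this stretch in the VEGFA difference was not tested.

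In NOTCH1KO the other ligand genes differed less from WT than VEGFA did. VEGFB (ENSG00000173511, chromosome 11, 64002010 to 64006259, plus strand) was at 23.2, 27.5, 15.0 and 18.3 TPM in WT. In NOTCH1KO it was at 15.6, 15.1, 14.6 and 18.1 and in NOTCH2KO at 23.0, 29.2, 23.3 and 29.2, so that both knockouts overlapped WT but not each other. NOTCH2KO exceeded NOTCH1KO by 0.68 ± 0.15 (adjusted p = 0.00937), while the differences from WT were -0.35 ± 0.15 in NOTCH1KO (adjusted p = 0.121) and 0.33 ± 0.15 in NOTCH2KO (adjusted p = 0.162). With coverage in place of TPM the former passed the test (adjusted p = 0.045). The 214 tested genes within 5 Mb of VEGFB had a median of -0.40 in NOTCH1KO and of 0.48 in NOTCH2KO against NOTCH1KO. In the latter comparison 95 of them were called higher, where 19.8% of all tested genes were. The part of this stretch in the VEGFB values was not tested. 

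VEGFC (ENSG00000150630, chromosome 4, 177604689 to 177713881, minus strand), a ligand of lymphatic growth, was at 19.2 to 28.2 TPM in WT, 17.0 to 21.7 in NOTCH1KO and 16.8 to 23.5 in NOTCH2KO, which overlapped. Its log2 differences from WT were -0.33 ± 0.11 (adjusted p = 0.0603) and -0.29 ± 0.11 (adjusted p = 0.0988). Without the WT library on Jagged1 with DMSO both passed the test, at -0.43 (adjusted p = 0.0253) and -0.39 (adjusted p = 0.0409). The former also passed with FPKM (-0.35, limma adjusted p = 0.0413) or coverage (-0.16, adjusted p = 0.0473) in place of TPM. The latter also passed with library weights (-0.31, adjusted p = 0.042) and with median-centred libraries. Mean coverage of VEGFC was 0.993 in WT and 0.783 in NOTCH1KO. Adding 1 before the logarithm shrinks differences at such values, so -0.16 is not on the scale of the TPM differences. PGF (ENSG00000119630, chromosome 14, 75408537 to 75422487, minus strand) was at 5.08, 5.36, 7.11 and 3.59 in WT, 8.17, 3.62, 6.48 and 6.04 in NOTCH1KO, and reached 11.7, 7.15, 9.87 and 7.43 in NOTCH2KO. The lowest NOTCH2KO library stood just above the highest of WT. Its rise in NOTCH2KO, 0.68 ± 0.18 (adjusted p = 0.0337), lost its call when any of 7 libraries was left out (adjusted p from 0.0517 to 0.108), namely each NOTCH2KO library and every WT library but Fc with DAPT. It also lost it without a filter on low values (adjusted p = 0.143). In NOTCH1KO PGF was at 0.16 ± 0.18 (adjusted p = 0.568), and NOTCH2KO exceeded NOTCH1KO by 0.52 ± 0.18 (adjusted p = 0.0596), a difference that was called with the WT library of Fc and DAPT left out (adjusted p = 0.04), or with the NOTCH1KO library on Jagged1 with DAPT (adjusted p = 0.0437). The 85 tested genes within 5 Mb of PGF had a median of 0.01 in NOTCH2KO against WT. Against NOTCH1KO it was 0.25, with 26 higher and 5 lower, where 19.8% and 11.9% of all tested genes were. The part of this stretch in the PGF values was not tested.

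The 4 ligand genes summed to 233 ± 32.2 TPM in WT, 111 ± 11.9 in NOTCH1KO and 169 ± 15.7 in NOTCH2KO. VEGFA made up 77.4 ± 6.52% of that sum in WT (70.1 to 83.3%), 62.3 ± 4.93% in NOTCH1KO (57.8 to 69.4%) and 66.9 ± 4.21% in NOTCH2KO (61.7 to 71.3%). The shares in NOTCH1KO lay below those of WT and the shares in NOTCH2KO overlapped them. The share of VEGFC was 11.0 ± 2.9%, 17.8 ± 2.99% and 12.0 ± 2.09% in the same order, that of VEGFB 9.32 ± 3.44%, 14.4 ± 2.44% and 15.7 ± 3.29%, and that of PGF 2.33 ± 0.735%, 5.48 ± 1.75% and 5.34 ± 1.12%. These shares are given without a test and rest on TPM. In mean coverage VEGFA stood at 14.6 against 7.47 for VEGFB in WT. The same 2 genes stood at 5.62 and 4.92 in NOTCH1KO and at 9.50 and 9.32 in NOTCH2KO.

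**Figure D3:**
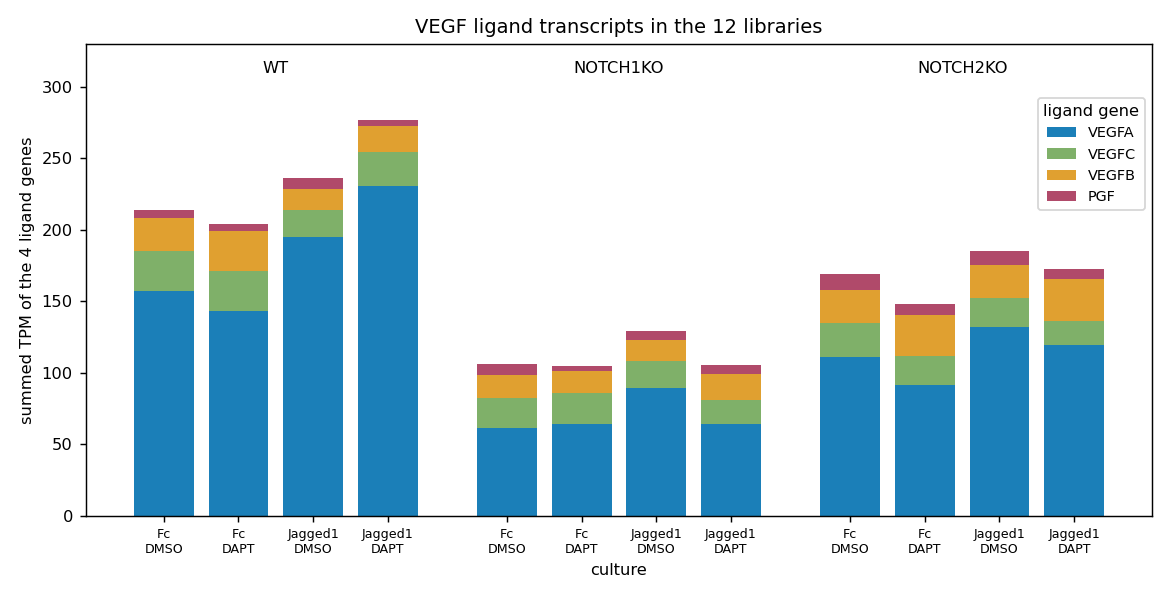
Summed TPM of the 4 VEGF ligand genes (vertical axis) in each library (horizontal axis, grouped by genotype), with the colours giving the part of each gene. The sum was lowest in NOTCH1KO, at 105 to 129, against 204 to 277 in WT, and VEGFA made up most of every bar.

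Among the receptor genes, FLT1 rose in NOTCH1KO and NRP2 in NOTCH2KO, and NRP1 passed the test in neither. FLT1 (ENSG00000102755, chromosome 13, 28874489 to 29069265, minus strand) was at 2.43, 1.35, 8.67 and 2.24 TPM in WT, 7.82, 7.92, 12.6 and 7.37 in NOTCH1KO and at 3.62, 3.59, 4.65 and 2.90 in NOTCH2KO. The WT library in the Notch-on culture reached into the range of NOTCH1KO, and in every culture NOTCH1KO stood above both other genotypes. The log2 difference from WT was 1.29 ± 0.25 in NOTCH1KO (adjusted p = 0.00792) and 0.22 ± 0.25 in NOTCH2KO (adjusted p = 0.576), and NOTCH2KO lay below NOTCH1KO (-1.06 ± 0.25, adjusted p = 0.012). Without a filter on low values the adjusted p of FLT1 was 0.0506 for NOTCH1KO against WT and 0.0712 for NOTCH2KO against NOTCH1KO. Of the 56 tested genes within 5 Mb of FLT1, 16 rose in NOTCH1KO (median 0.22), where 10.7% of all tested genes rose. The part of this stretch in the FLT1 value was not tested. The tables give 1 level per gene, so that transcripts of the full receptor and of its soluble forms could not be told apart.

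NRP2 (ENSG00000118257, chromosome 2, 206546714 to 206662857, plus strand) was at 116, 106, 130 and 120 TPM in WT and at 119, 104, 144 and 94.5 in NOTCH1KO. In NOTCH2KO it was at 179, 171, 192 and 181, above every library of the other genotypes. It rose in NOTCH2KO by 0.61 ± 0.09 against WT (adjusted p = 0.00335) and by 0.66 ± 0.09 against NOTCH1KO (adjusted p = 0.00121), and stood at -0.05 ± 0.09 in NOTCH1KO against WT (adjusted p = 0.732). Of the 73 tested genes within 5 Mb, 14 rose in NOTCH2KO (median 0.19) and 14 in NOTCH1KO (median 0.17). Over all tested genes 12.0% rose in NOTCH2KO and 10.7% in NOTCH1KO. The part of this stretch in the NRP2 value was not tested. NRP2 overlaps AC007362.1 on its own strand, which averaged 45.7 TPM, and the sources used here do not say how reads common to both were counted. NRP1 (ENSG00000099250, chromosome 10, 33466420 to 33625190, minus strand) was at 77.2, 95.9, 117 and 83.1 in WT, 88.3, 103, 50.6 and 94.7 in NOTCH1KO, and reached 119, 84.9, 99.5 and 114 in NOTCH2KO. The genotypes overlapped, and its differences from WT were -0.18 ± 0.24 (adjusted p = 0.626) and 0.17 ± 0.24 (adjusted p = 0.667). The lowest of its 12 values was that of the Notch-on culture in NOTCH1KO.

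EDN1 rose in both knockout lines. EDN1 (ENSG00000078401, chromosome 6, 12290596 to 12297427, plus strand) was at 26.1, 17.1, 6.90 and 11.5 TPM in WT, 83.8, 53.2, 31.7 and 51.3 in NOTCH1KO and at 74.9, 70.3, 55.4 and 54.6 in NOTCH2KO. Every knockout library lay above every WT library, and the knockouts overlapped each other. Mean TPM was 3.57 times that of WT in NOTCH1KO and 4.14 times in NOTCH2KO. The log2 difference was 1.84 ± 0.19 (adjusted p = 0.000534) and 2.11 ± 0.19 (adjusted p = 0.000323), and NOTCH2KO stood 0.28 ± 0.19 above NOTCH1KO (adjusted p = 0.303). Both calls against WT held in every other setting tried. Of the 53 tested genes within 5 Mb of EDN1, 5 rose and 13 fell in NOTCH2KO (median -0.12), where 12.0% and 7.35% of all tested genes did. Their median was 0.06 in NOTCH1KO. The part of this stretch in the EDN1 values was not tested.

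ESM1 separated the knockout lines. ESM1 (ENSG00000164283, chromosome 5, 54273692 to 54318499, minus strand) was at 14.5, 6.52, 5.40 and 4.86 TPM in WT, 7.84, 5.09, 9.55 and 4.77 in NOTCH1KO and at 73.9, 48.4, 56.1 and 32.3 in NOTCH2KO. The NOTCH2KO libraries lay above all others, and those of WT and NOTCH1KO overlapped. Mean TPM in NOTCH2KO was 6.74 times that of WT and 7.74 times that of NOTCH1KO. The log2 difference was 2.66 ± 0.21 against WT (adjusted p = 0.000178) and 2.77 ± 0.21 against NOTCH1KO (adjusted p = 7.58e-05), and NOTCH1KO stood at -0.10 ± 0.21 against WT (adjusted p = 0.756). The median of the 41 tested genes within 5 Mb of ESM1 was 0.08 in NOTCH2KO.

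ANGPTL4 (ENSG00000167772, chromosome 19, 8428173 to 8439257, plus strand) was at 6.07, 4.45, 5.61 and 5.07 TPM in WT, 2.38, 2.08, 3.97 and 4.36 in NOTCH1KO and at 9.79, 4.36, 7.57 and 9.79 in NOTCH2KO. The NOTCH1KO libraries lay narrowly below those of WT, and NOTCH2KO overlapped both. NOTCH2KO exceeded NOTCH1KO by 1.07 ± 0.19 (adjusted p = 0.00341). The fall in NOTCH1KO against WT, -0.62 ± 0.19 (adjusted p = 0.0428), lost its call when any of 9 libraries was left out (adjusted p from 0.0511 to 0.132), namely each NOTCH1KO library, every WT library but Jagged1 with DAPT, and both NOTCH2KO libraries on Jagged1. With coverage in place of TPM it was -0.20 (limma adjusted p = 0.378), and with coverage scaled to the same sum as TPM it was -0.31 (adjusted p = 0.335). Mean coverage of ANGPTL4 was 1.41 in WT and 1.12 in NOTCH1KO, where adding 1 before the logarithm shrinks the -0.20. In NOTCH2KO ANGPTL4 was at 0.45 ± 0.19 against WT (adjusted p = 0.131). RAB11B-AS1, on the opposite strand of ANGPTL4, averaged 2.67 TPM.

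Between the knockout lines, 5 of the 10 genes were higher in NOTCH2KO (ESM1, ANGPTL4, VEGFA, VEGFB and NRP2), where 19.8% of all tested genes were, and 1 was lower (FLT1), where 11.9% were. The median log2 difference was 0.59 over the 10 genes and 0.07 over all tested genes. Centring the libraries on their medians moved the share of genes higher in NOTCH2KO among all calls from 62.5% to 40.0%, and the 6 calls were all made again, with log2 differences from 0.51 to 2.62 for the 5 and -1.22 for FLT1.

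The cultures asked how the genes answered 12 h of Jagged1 or of DAPT. None of the 10 genes passed the test in any culture comparison, in which few genes passed at all. For Jagged1 against Fc in DMSO 0 of 10 genes were called by limma, with 4 at an unadjusted p under 0.05, and 0.0114% of all tested genes were called. The count was 0 under DAPT (2 unadjusted, 0.00568% of all tested genes), 0 for DAPT on Jagged1 (3 unadjusted, 0.0284%) and 0 for DAPT on Fc (3 unadjusted, 0.0341%). For the difference between the Jagged1 effects in DMSO and under DAPT it was 0 (1 unadjusted, 0.0170%). Comparisons that pool cultures were added after the values were seen. The Notch-on culture against the other 3 gave 0 calls (4 unadjusted, 0.709%), DAPT over both plates 0 (4 unadjusted, 0.312%) and Jagged1 over DMSO and DAPT 0 (5 unadjusted, 0.0170%). The calls among all tested genes moved with single libraries. For the Notch-on culture there were 125, but 0 without the WT library on Jagged1 with DMSO and 287 without the NOTCH2KO library on Jagged1 with DMSO. Without that NOTCH2KO library the calls went from 55 to 159 for DAPT over both plates, from 5 to 118 for DAPT on Jagged1 and from 2 to 42 for Jagged1 in DMSO.

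EDN1 and FLT1 had the lowest p-values among these. EDN1 was lower on Jagged1 than on Fc in 6 of 6 pairs of libraries of the same genotype and drug. In DMSO it went from 26.1 to 6.90 TPM in WT, from 83.8 to 31.7 in NOTCH1KO and from 74.9 to 55.4 in NOTCH2KO, a log2 difference of -1.19 ± 0.22 (adjusted p = 0.22). Under DAPT the log2 difference was -0.31 ± 0.22 (adjusted p = 1). Against the other 3 cultures the Notch-on culture stood at -0.80 ± 0.18 (adjusted p = 0.101). Without the NOTCH2KO library on Jagged1 with DMSO both comparisons with the Notch-on culture were called, at -1.47 (adjusted p = 0.0371) and -1.07 (adjusted p = 0.0251). DAPT on Jagged1 stood at 0.44 ± 0.22 (adjusted p = 0.509) and DAPT on Fc at -0.44 ± 0.22 (adjusted p = 0.815).

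FLT1 was highest in the Notch-on culture in each genotype. It stood at 8.67 TPM there in WT against 1.35 to 2.43 in the other 3 cultures, at 12.6 against 7.37 to 7.92 in NOTCH1KO and at 4.65 against 2.90 to 3.62 in NOTCH2KO. The ratio to the mean of the other cultures was 4.32, 1.63 and 1.38. The log2 difference was 0.91 ± 0.23 (adjusted p = 0.134), and DAPT on Jagged1 stood at -0.94 ± 0.28 (adjusted p = 0.297). NRP2 also had its highest level there in each genotype (0.25 ± 0.09, adjusted p = 0.242). VEGFA was higher on Jagged1 in 5 of 6 pairs (0.36 ± 0.10, adjusted p = 0.342), 3 of 3 in DMSO and 2 of 3 under DAPT, and VEGFC was lower in 6 of 6 (-0.28 ± 0.09, adjusted p = 0.407).

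ESM1 was lower with DAPT than with DMSO in 6 of 6 pairs, with a log2 difference of -0.66 ± 0.17 (adjusted p = 0.195), and NRP2 was lower in 6 of 6 as well (-0.20 ± 0.08, adjusted p = 0.398). PGF was lower in 5 of 6 (-0.47 ± 0.15, limma adjusted p = 0.298), as was FLT1 (-0.56 ± 0.20, adjusted p = 0.369). VEGFB was higher in 5 of 6 (0.23 ± 0.12, adjusted p = 0.571). NRP1 and ANGPTL4 kept no direction, with 4 and 2 of 6 pairs higher under DAPT. Such directions in small sets of pairs that share libraries are given as a description.

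**Figure D4:**
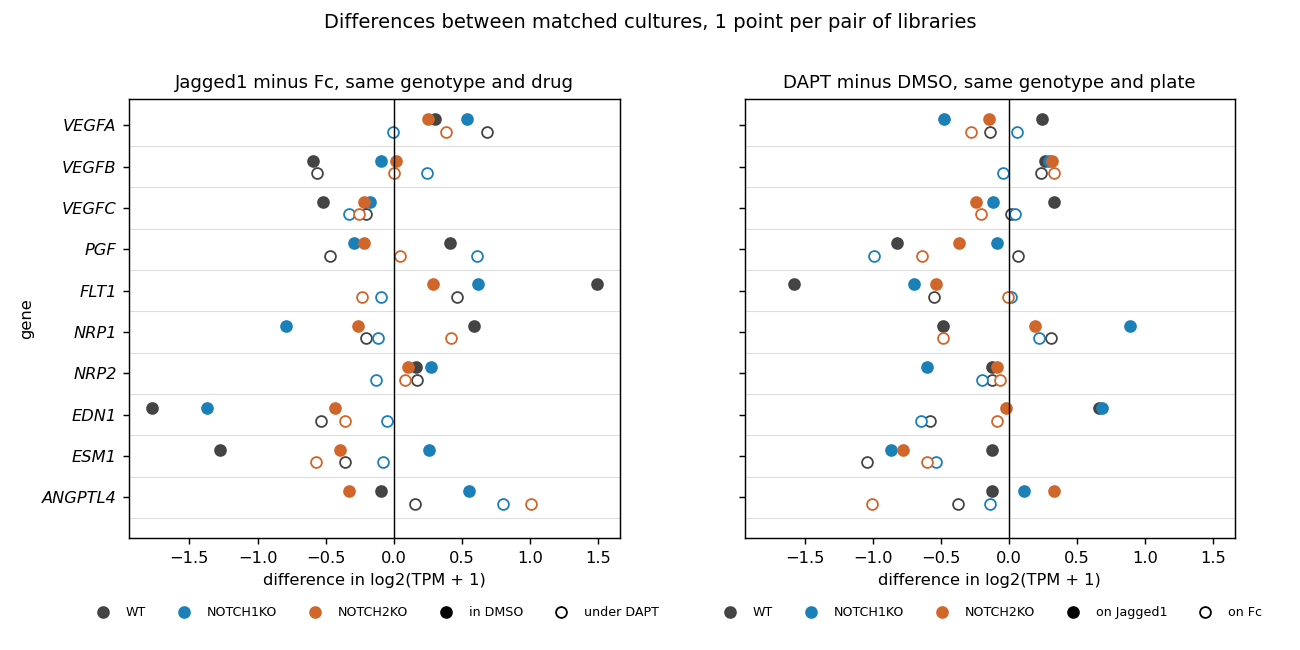
Difference in log2(TPM + 1) (horizontal axes) of the 10 genes (vertical axis) between matched cultures, with Jagged1 minus Fc on the left and DAPT minus DMSO on the right, 1 point per pair of libraries coloured by genotype. EDN1 and VEGFC lay left of 0 for all 6 Jagged1 pairs, and ESM1 and NRP2 for all 6 DAPT pairs.

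The response to the Notch-on culture was compared between genotypes in a model with interaction terms. By limma 0 of 10 genes were called for NOTCH1KO minus WT (3 unadjusted) and 0 for NOTCH2KO minus WT (2 unadjusted), with 0.0851% of all tested genes called in each. The largest values were those of NRP1 and FLT1. NRP1 went to 117 TPM in the Notch-on culture of WT, against 77.2 to 95.9 in the others, and to 50.6 in NOTCH1KO, against 88.3 to 103, a difference of responses of -1.35 ± 0.33 (adjusted p = 0.652). For FLT1 the difference of responses was -1.06 ± 0.34 in NOTCH1KO (adjusted p = 0.835) and -1.33 ± 0.34 in NOTCH2KO (adjusted p = 0.519). For EDN1 it was 0.96 ± 0.32 in NOTCH2KO (adjusted p = 0.764) and for ESM1 1.10 ± 0.34 in NOTCH1KO (adjusted p = 0.823).

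Genes whose levels over the 12 libraries were most like those of the 10 genes were read from Pearson's r of log2(TPM + 1), as a description over libraries that share lines and cultures. VEGFA was nearest to ASS1 (argininosuccinate synthase, r = 0.968), GS1-600G8.5 (r = 0.968) and KYNU (kynureninase, r = 0.966). FLT1 was nearest to GREM1, which encodes a BMP antagonist (r = 0.972), followed by WDR37 and NPL, and GREM1 averaged 64.8 TPM in WT, 191 in NOTCH1KO and 78.9 in NOTCH2KO. ESM1 was nearest to AC011294.3, RGMB and MFI2 (r = 0.965, 0.949 and 0.943), and EDN1 to TMEM158, AC009299.4 and PPRC1 (r = 0.951, 0.949 and 0.944). NRP2 was nearest to AC007362.1 (r = 0.969), which overlaps it, and VEGFB to PRADC1 (r = 0.967). VEGFC and NRP1 had no gene above r = 0.852 and 0.828.

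The receptors and partners of these factors were read from lists. Beside the counts of the lists, 10.7% of all tested genes rose and 12.8% fell in NOTCH1KO, and 12.0% rose and 7.35% fell in NOTCH2KO. Of the other VEGF genes, KDR was listed at 0 in 9 libraries and did not exceed 0.156 TPM, and VEGFD did not exceed 1.01. FLT4 was at 5.90 ± 2.25 in WT, 4.07 ± 1.01 in NOTCH1KO and 8.21 ± 1.21 in NOTCH2KO, with neither difference from WT called (adjusted p = 0.17 and 0.127) and NOTCH2KO higher than NOTCH1KO (0.87 ± 0.19, adjusted p = 0.0101). In the endothelin system, where 2 of 7 genes besides EDN1 were tested, both fell in both lines. ECE1, which encodes the enzyme that cuts endothelin from its precursor, went from 175 ± 27.8 to 84.8 ± 21.5 in NOTCH1KO (-1.05, adjusted p = 0.000388) and 128 ± 18.7 in NOTCH2KO (-0.44, adjusted p = 0.0181). ECE2 stood at -0.41 and -0.38. The endothelin receptor gene EDNRB, below the test's minimum, averaged 1.60, 0.325 and 0.445 TPM, and EDNRA did not exceed 0.847.

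Of the 5 angiopoietin and TIE receptor genes 3 were tested, and 2 fell in NOTCH1KO (TEK -0.80, TIE1 -0.70) while ANGPT1 rose in NOTCH2KO (16.5 ± 3.67 against 9.42 ± 2.06, 0.74) and in the Notch-on culture (0.54, adjusted p = 0.0418). Of 7 angiopoietin-like genes besides ANGPTL4, ANGPTL2 was tested. It fell from 114 ± 37.2 to 26.6 ± 10.2 in NOTCH1KO (-2.09) and 71.9 ± 27.7 in NOTCH2KO (-0.69), and was higher in the Notch-on culture (0.71, adjusted p = 0.0269). Neither Notch-on call was made without the WT library on Jagged1 with DMSO, where 0 genes passed. Of the semaphorin and plexin genes, the other ligands and partners of neuropilins, 9 of 12 were tested. In NOTCH1KO 4 fell and 1 rose, with PLXNA2 at -1.05, PLXNA1 at -0.98, SEMA3F at -0.80 and SEMA3D at 0.80. In NOTCH2KO 6 rose and 0 fell, with PLXNA3 at 1.14, SEMA3F at 1.08 and SEMA3C at 1.06. The median of the list was -0.37 and 0.57. Over all tested genes 10.7% rose and 12.8% fell in NOTCH1KO, and 12.0% rose and 7.35% fell in NOTCH2KO.

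The counts of the next 3 lists stand beside 10.7% rises and 12.8% falls over all tested genes in NOTCH1KO, and 12.0% and 7.35% in NOTCH2KO. Of 26 other angiogenic factors and inhibitors 20 were tested. In NOTCH1KO 5 rose and 4 fell, led by the thrombospondin gene THBS2 (2.04), GREM1 (1.85), MDK (-1.44) and the vasohibin gene VASH2 (1.39). In NOTCH2KO 7 rose and 2 fell, led by THBS2 (-2.45), the chemokine gene CXCL12 (-1.78) and the apelin gene APLN (1.75), and CCL2 rose from 4228 ± 871 to 7413 ± 280.3 TPM (0.83). THBS2, whose product inhibits vessel growth, was thus at 16.3 ± 2.3 in WT, 69.9 ± 7.19 in NOTCH1KO and 2.18 ± 0.429 in NOTCH2KO. In the Notch-on culture 1 fell, APLN (-0.78, adjusted p = 0.0486), a call not made without the WT library on Jagged1 with DMSO. Of 28 hypoxia-induced genes 27 were tested, and 2 rose and 6 fell in NOTCH1KO (DDIT4 -2.68, LOX -1.45, CA9 -1.33) while 0 rose and 3 fell in NOTCH2KO (DDIT4 -1.67, TPI1 -0.58, GAPDH -0.51). Its medians were -0.04 and -0.02. Of 9 genes of HIF subunits and regulators 8 were tested, with 2 rises and 1 fall in NOTCH1KO (ARNT2 0.61, EGLN1 0.47, HIF1A -0.46) and 3 rises and 0 falls in NOTCH2KO (EPAS1 0.78, ARNT2 0.68, ARNT 0.50).

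Of 12 Notch target genes 9 were tested, with 0 rises and 4 falls in NOTCH1KO (HES4 -1.02, DTX1 -0.75, CCND1 -0.67, HES1 -0.43) and 0 rises and 1 fall in NOTCH2KO (HEY2 -0.66), and 2 rises in the Notch-on culture (HES1 1.11, HEY2 1.04), neither of them called without the WT library on Jagged1 with DMSO. Of 12 endothelial markers 6 were tested, and 4 fell in NOTCH1KO, EGFL7 (-1.85), ERG (-1.14), TEK and TIE1, while 1 rose in NOTCH2KO, ERG (0.60). Chromosomal neighbours were read for the 10 genes only. The part of neighbouring stretches in the values of the listed genes, EGFL7, the other markers and ANGPTL2 among them, was not tested. The part of the endothelial markers in the VEGFA and FLT1 values was not tested. In bulk RNA of a cell line, fewer cells with a transcript cannot be told apart from less of it per cell. Of the 10 medulloblastoma and granule lineage markers 6 were tested, with 1 rise and 2 falls in NOTCH1KO (NES 2.11, PTCH1 -1.24, ZIC1 -0.80) and 2 rises in NOTCH2KO (NES 1.02, GLI2 0.65). Over all tested genes the shares were 10.7% rises and 12.8% falls in NOTCH1KO and 12.0% and 7.35% in NOTCH2KO. For the Notch-on culture the share was 0.709% in either direction.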

How the data were processed

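Poly-A RNA of DAOY cells was made into stranded TruSeq libraries and sequenced as single reads of 51 bases, with CASAVA and bcl2fastq 2.17 and the genome GRCh37 named in the submitters' processing notes. The sources used here give no aligner settings, quantifier, annotation release or strand setting. TPM values deposited by the authors are levels relative to gene length, with 1 common sum in every library. The FPKM values deposited by the authors are a fixed multiple of TPM within a library. The coverage values deposited by the authors are mean read depths per base, not scaled between libraries. Depth was estimated from the commonest ratio of coverage to FPKM in a library, which puts 18.3 to 22.4 M reads in it. The ratio should be the same for all genes of a library and move between libraries with depth. Only 26.0 to 27.2% of the entries used lay at or close to the commonest value of their library. Among the 10 genes the ratio ran from 0.0562 (NRP2) to 1.14 (EDN1). Over the libraries it spanned 1.61 to 1.79 times for VEGFB, ANGPTL4, NRP2 and NRP1, so coverage was tried in place of TPM. Intervals and SDs cover these libraries only.

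TPM was summed per gene identifier. log2(TPM + 1) was fitted, for genes whose mean TPM was 1 or more, in R 4.3.3 with limma 3.58.1, mean-variance trend, additive terms for genotype and culture (6 residual degrees of freedom), or with interaction terms for the Notch-on culture (4). Genes were called at an adjusted p under 0.05 over all 17621 tested genes. The comparisons numbered 13, of which 3 that pool cultures were added after the values were seen. Pairs of libraries correlated at 0.924 to 0.976, and 0 of 66 pairs were identical. The scripts were tested on simulated data. Tables were handled in Python 3.11.15 with pandas 2.3.3 and NumPy 2.4.6, and figures drawn with matplotlib 3.10.9. Promoter windows were those of RefSeq on GRCh38.p14. Gene coordinates are those of the tables.

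The 10 genes, the 11 lists and the naming rule were chosen with earlier results of these data known. The rule named the 10 genes everywhere, the 3 genes of mean TPM 5 or more with the highest Pearson's r to each, up to 4 called genes of each list with the largest difference, NOTCH1, NOTCH2, HES1, HES4, HEY1 and NRARP. Genes named beyond it (receptors and markers listed at or near 0, FLT4 and CCL2) were chosen after their values were seen. Other settings were a pseudocount of 0.1, no filter, a minimum mean TPM of 5, FPKM, coverage, coverage scaled to the same sum in every library as TPM has (added after the values were seen), median-centred libraries, library weights, a log2 difference of at least 1, the term of the comparison alone and each library left out.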

Additional observations from a re-analysis of the deposited data

Results flagged for a closer look

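Among 30 sets of 4 libraries, 1 for each gene and genotype, 3 held a library that stood apart from the other 3 by Dixon's test, where chance gives about 1 in 20. All 3 were libraries of the Notch-on culture, Jagged1 with DMSO, and the 4 libraries of a set are different cultures, not replicates. FLT1 was at 8.67 TPM in this culture of WT, against 1.35 to 2.43 in the other libraries, with a gap of 0.852 of the whole range. In NOTCH1KO FLT1 was at 12.56 TPM in the same culture, against 7.37 to 7.92 (0.895). VEGFA was at 89.54 TPM in this culture of NOTCH1KO, against 61.5 to 64.2 (0.903). In the test over all 3 genotypes neither gene was called for this culture, FLT1 with an adjusted p = 0.134 and VEGFA with an adjusted p = 0.246 by limma. The cause was not tested.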

How the results depend on the processing

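Of the calls of the 10 genes, those of VEGFA, EDN1, ESM1 and NRP2 were made again under each of 22 other settings, except where a log2 difference of at least 1 was required, and no called difference changed its sign. That requirement left EDN1 and ESM1 called for NOTCH2KO against WT, and ESM1, ANGPTL4 and FLT1 for NOTCH2KO against NOTCH1KO. With no filter on low values VEGFA and EDN1 kept their calls for NOTCH1KO against WT, and FLT1 and ANGPTL4 lost theirs. The shares over all tested genes under these settings are not given here. Over the settings that leave out 1 library, the count for Jagged1 against Fc in DMSO ran from 0 to 1 and that for the Notch-on culture against the other 3 from 0 to 1, with EDN1 called in both without the NOTCH2KO library on Jagged1 with DMSO. Among all tested genes the calls ran from 2637 to 4019 for NOTCH1KO against WT, from 2025 to 4039 for NOTCH2KO against WT and from 4126 to 5530 between the knockouts when 1 library was left out, and from 0 to 287 for the Notch-on culture, 11 to 159 for DAPT over both plates, 0 to 118 for DAPT on Jagged1 and 2 to 42 for Jagged1 in DMSO. The lowest counts came without WT on Fc with DAPT for NOTCH1KO (2637, against 1884 rises and 2253 falls with all libraries) and without WT on Fc with DMSO for NOTCH2KO (2025, against 2109 and 1296). Over the 10 genes, 13 comparisons and all settings, 2733 values kept their side of the threshold, 34 lost a call and 13 gained one. The interaction fit could not be made with the term of the comparison alone or where the only library of a genotype in the Notch-on culture was left out. The labels give no replicate numbers, and the culture term of the fit already sets libraries of the same culture against each other. With 1 library per combination, depth limits the low genes most, FLT1, PGF and ANGPTL4 among them.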
